A study of Mus musculus with 6 samples.

Results

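Polyamine, arginine and nitric oxide enzymes were followed as 10 genes chosen by symbol from the 16244 genes of the deposited expression table. The members were *Odc1*, *Amd1*, *Srm* and *Sms* of polyamine synthesis, *Oaz1* and *Azin1* of its protein-level control, *Sat1* of polyamine acetylation, and *Arg1*, *Arg2* and *Nos2*, whose products compete for arginine. All 10 were found, and 8 of them had enough reads to be tested.

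Poly-A RNA was sequenced from 6 libraries of mouse pathogenic Th17 cells, 3 labelled WT and 3 labelled Mut, the latter carrying the RORγtN275D knock-in. This missense change in the Th17 transcription factor RORγt is in the germline and so is not limited to T cells. Naive CD4+ T cells from spleen were cultured for 3 days with antibodies to CD3 and CD28 and with IL-6, IL-1β and IL-23, and both genotypes received the same treatment. The recipe in the study's methods also lists TGF-β and blocking antibodies to IL-4 and IFN-γ, which the series' design text does not name. Per the study's methods, WT C57BL/6 mice were purchased and the knock-in line, on a C57BL/6 background, came from another laboratory, so genotype and breeding source cannot be told apart. Young adult mice of both sexes were used, and neither the zygosity of the knock-in donors nor whether each library came from a separate animal is given in the sources used here. P-values therefore measure the spread between these libraries, which may be technical. The comparison asks which of these enzymes differ in mRNA between RORγtN275D and WT Th17 cells.

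Polyamines are small cations that dividing cells need for nucleic acid packing and translation, and T cells raise their synthesis on activation. Ornithine decarboxylase makes putrescine from ornithine, spermidine synthase and spermine synthase extend it with groups taken from decarboxylated S-adenosylmethionine, and spermidine also supplies the hypusine residue of the translation factor eIF5A. Arginase turns arginine into ornithine, whereas inducible nitric oxide synthase turns arginine into citrulline and nitric oxide. Ornithine decarboxylase is also controlled as protein, because antizyme carries it to the proteasome and antizyme inhibitor binds antizyme in its place, and mRNA levels do not show that step.

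Promoters are shown for 4 members to set an enzyme that was higher in RORγtN275D (*Odc1*) and 2 that were lower (*Sat1*, *Sms*) beside *Oaz1*, for which no difference was detected. Each is the first 250 bases of the member's RefSeq promoter entry in GRCm38.p6, written 5′ to 3′ on the gene's strand. For *Odc1* this window runs past the start of the gene entry at 17544808. RefSeq promoter entries were matched for 5 of the 10 members, the fifth being *Amd1*, and not for *Srm*, *Azin1*, *Arg1*, *Arg2* and *Nos2*. Capitals mark matches on either strand to CACGTG (the E-box of MYC), ACGTG or GCGTG (the core of the hypoxia response element), or AGGTCA (the core of the ROR response element).
Odc1 chr12:17544623-17544872 (+): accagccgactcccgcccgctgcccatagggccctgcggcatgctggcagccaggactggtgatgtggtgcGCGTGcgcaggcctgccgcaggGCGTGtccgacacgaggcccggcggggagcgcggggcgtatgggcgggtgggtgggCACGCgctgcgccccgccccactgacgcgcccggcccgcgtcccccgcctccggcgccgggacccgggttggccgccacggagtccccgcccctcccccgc
Oaz1 chr10:80826406-80826655 (+): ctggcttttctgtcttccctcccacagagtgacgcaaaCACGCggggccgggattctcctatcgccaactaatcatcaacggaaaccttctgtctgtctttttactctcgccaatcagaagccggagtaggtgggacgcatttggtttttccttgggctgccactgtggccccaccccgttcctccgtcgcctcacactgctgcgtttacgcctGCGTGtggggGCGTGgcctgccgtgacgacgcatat
Sat1 chrX:155216450-155216699 (-): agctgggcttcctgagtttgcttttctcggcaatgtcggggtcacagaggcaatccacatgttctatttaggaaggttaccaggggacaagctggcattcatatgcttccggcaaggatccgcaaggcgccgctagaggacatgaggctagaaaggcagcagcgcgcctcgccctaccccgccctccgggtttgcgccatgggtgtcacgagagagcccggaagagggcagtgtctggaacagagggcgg
Sms chrX:157492288-157492537 (-): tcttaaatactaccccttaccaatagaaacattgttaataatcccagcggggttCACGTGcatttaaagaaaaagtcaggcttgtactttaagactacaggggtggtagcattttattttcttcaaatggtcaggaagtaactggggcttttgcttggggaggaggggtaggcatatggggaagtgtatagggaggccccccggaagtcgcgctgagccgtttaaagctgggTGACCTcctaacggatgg
The *Odc1* and *Oaz1* windows each held 3 matches to GCGTG, and no match to the other motifs. In the *Sat1* window no match was found. The *Sms* window held 1 CACGTG, which contains an ACGTG on each strand, and 1 AGGTCA. A second *Sms* entry held 2 GCGTG, and *Amd1* held 1. Among 32851 RefSeq promoter windows of the same length, the share with at least 1 match was 28.2% for GCGTG, 16.6% for ACGTG, 6.02% for CACGTG and 14.0% for AGGTCA. Whether any of these matches bears on the differences between genotypes was not tested. A match is a description of these letters and not a binding site.

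Library depth lay between 17659035 and 18510878 reads on genes. Values are normalized reads, meaning the read counts of the authors after each library was scaled by its own factor. Differences are log2 fold changes (RORγtN275D over WT) of normalized reads + 1 from limma with a trended prior, with Benjamini-Hochberg adjustment over the 11908 genes whose mean was at least 10, and a gene was called at an adjusted p under 0.05. WT replicate 3 stood apart by its distance from the mean of the other libraries of its genotype. The median absolute distance over all genes tested was 0.103 on the log2 scale, against 0.0557 to 0.0755 in the other 5 libraries. All 10 T cell and Th17 markers were expressed, including *Cd4*, *Il17a* and *Il17f*, with 5 called higher and 3 lower. Sums over markers of other cells differed with genotype. B cell markers summed to 1140 to 1178 normalized reads in WT and 1742 to 1808 in RORγtN275D (6 of 7 tested were higher, led in reads by *Ebf1*). CD8 T and natural killer cell markers summed to 208 to 225 and 303 to 338 (4 of 5 higher). Among them *Cd8b1* was higher (means of 98.9 and 148), whereas *Cd8a* was not called (32.6 and 27.6). Stromal and endothelial markers summed to 346 to 416 and 468 to 531 (1 of 4 higher, *Pecam1*), with *Col1a2*, *Col3a1* and *Kdr* at 3 reads or fewer in every library. Most of this sum was *Pecam1*, with means of 307 and 424, and *Col1a1*, *Pdgfrb* and *Epcam* were not called. The part of these cells in the results was not tested. In bulk RNA, a change in the number of cells that express a gene and a change in RNA per cell cannot be told apart.

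Of the 8 members tested, 2 were higher in RORγtN275D (*Odc1* and *Nos2*), 4 were lower (*Srm*, *Sms*, *Sat1* and *Azin1*) and 2 were not called (*Oaz1* and *Amd1*). Calls were common in these libraries: 50.9% of all genes tested were called, 24.7% as higher and 26.1% as lower. The 2 genotypes did not overlap in 5 of the 8 members, 2 with RORγtN275D higher and 3 with it lower, beside 57.7% of all genes tested (28.1% higher and 29.6% lower). The members' median log2 fold change was -0.13, beside -0.0026 over all genes tested. No member reached 2-fold, whereas 3.59% of all genes tested were both called and at least 2-fold different. limma, edgeR and DESeq2 each gave 0 of 8 at 2-fold, and in each 6 of 8 had an unadjusted p under 0.05.

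**Figure D1:**
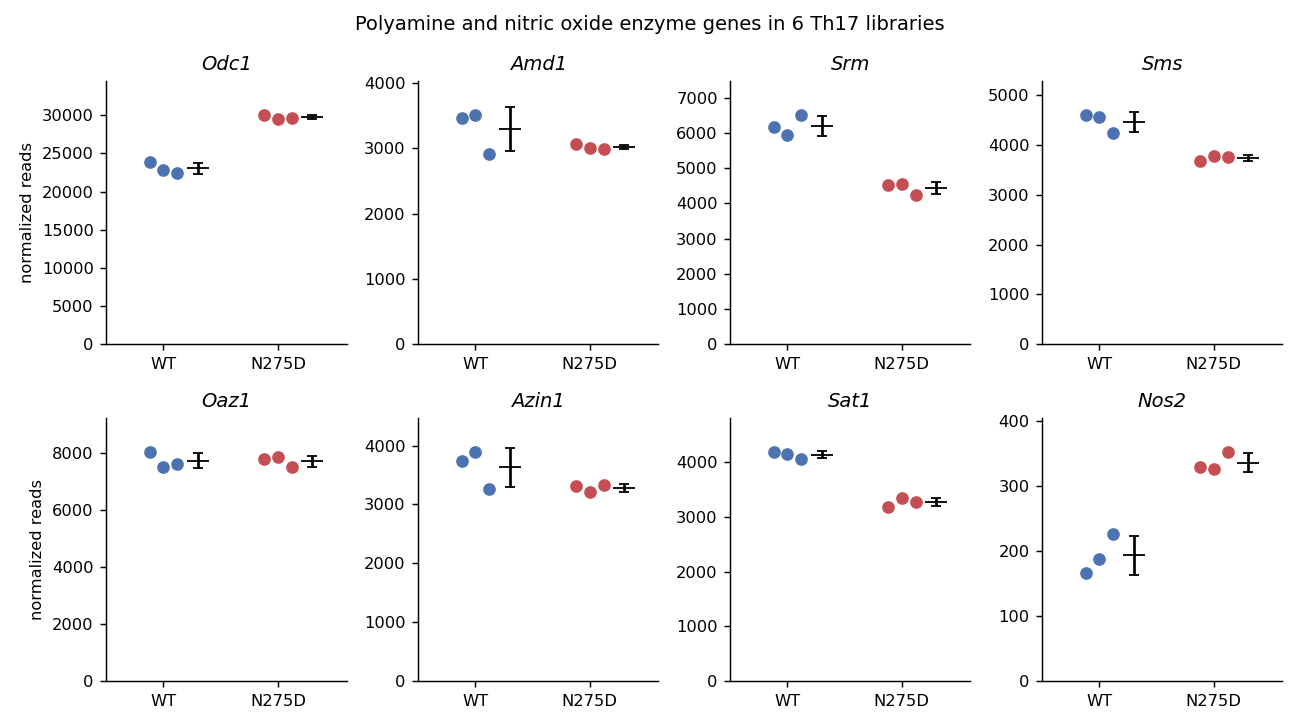
Normalized reads (y axes, each from 0) of the 8 tested members in the 3 WT (blue) and 3 RORγtN275D (red) libraries, 1 point per library in replicate order, with the mean and SD in black. *Odc1* and *Nos2* sit higher in every RORγtN275D library and *Srm*, *Sms* and *Sat1* lower, whereas the genotypes overlap for *Amd1*, *Oaz1* and *Azin1*.

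The entry enzyme of polyamine synthesis was higher in RORγtN275D, and both enzymes that extend its product were lower. *Odc1*, which encodes ornithine decarboxylase (chr12:17544808-17551502, mm10), had 23869, 22778 and 22472 normalized reads in the WT libraries. In RORγtN275D it had 29994, 29538 and 29710. Every RORγtN275D library lay above every WT library, and the means of 23040 ± 734 and 29747 ± 230 (SD, n = 3 each) differ by 29.1% (log2 fold change 0.37, SE 0.03, 95% confidence interval 0.30 to 0.44, limma adjusted p = 1.47e-07). *Odc1* ranked between 33 and 61 by normalized reads among all genes in each library and took 0.127% of reads in WT and 0.168% in RORγtN275D.

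*Srm*, which encodes spermidine synthase (chr4:148591513-148594619), had 6167, 5944 and 6498 normalized reads in WT. The RORγtN275D libraries had 4533, 4535 and 4226. *Srm* was lower in all 3, without overlap, with means of 6203 ± 278 and 4432 ± 178, and fell by 28.6% (log2 fold change -0.48, SE 0.04, limma adjusted p = 1.14e-07). Among all genes tested, 86.2% had a smaller absolute log2 fold change than *Srm*, and 78.1% a smaller one than *Odc1*. Hence the member with the largest share of reads was higher while the next enzyme of the pathway was lower by the larger log2 step.

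*Sms*, which encodes spermine synthase (chrX:157443851-157492287), had 4592, 4564 and 4233 normalized reads in WT. In RORγtN275D it had 3667, 3767 and 3763. The genotypes did not overlap, and *Sms* fell by 16.4% (log2 fold change -0.26, SE 0.04, limma adjusted p = 6.13e-05). The 3 RORγtN275D libraries were the tighter group, with an SD of 56.7 against 200 in WT.

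*Amd1*, which encodes the S-adenosylmethionine decarboxylase that feeds both synthases (chr10:40287458-40302188), had 3473, 3507 and 2910 normalized reads in WT. In RORγtN275D it had 3063, 3015 and 2998. WT replicate 3 was the lowest of the 6 libraries, and the other 2 WT libraries were above all 3 RORγtN275D libraries. *Amd1* was not called (log2 fold change -0.12, SE 0.06, 95% confidence interval -0.24 to 0.0015, limma adjusted p = 0.0925), and without WT replicate 3 it was (log2 fold change -0.21, adjusted p = 1.05e-05). The difference was smaller without WT replicate 1 (-0.08, adjusted p = 0.321) or WT replicate 2 (-0.07, 0.332) and under quantile normalization (-0.06, 0.438). Its near-identical intronless copy *Amd2* had 4.01 ± 1.05 and 9.61 ± 3.42 normalized reads, under the mean of 10 needed for a test. Intronless copies in the mouse genome can share reads with *Amd1*, *Oaz1*, *Odc1* and *Sms*, and how such reads were assigned is not given in the sources used here.

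Neither gene of the antizyme pair was called higher. *Oaz1*, which encodes antizyme (chr10:80826656-80829290), had 8025, 7515 and 7623 normalized reads in WT. The RORγtN275D libraries had 7780, 7850 and 7486. The genotypes overlapped throughout, and no difference was detected, with a log2 fold change of -0.0027 (95% confidence interval -0.08 to 0.08, limma adjusted p = 0.958) whose sign changed with scaling, with the tool and with the library left out. The upper bound of 0.08 lies under the lower bound of 0.30 for *Odc1*.

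*Azin1*, which encodes antizyme inhibitor (chr15:38487430-38519294), had 3744, 3890 and 3254 normalized reads in WT. In RORγtN275D it had 3312, 3205 and 3331. WT replicate 3 lay within the RORγtN275D range. *Azin1* was called lower (log2 fold change -0.14, SE 0.05, limma adjusted p = 0.0375), and the call was lost in 8 of 16 alternatives, with the adjusted p as high as 0.289 under quantile normalization, where the log2 fold change was -0.07. Leaving out WT replicate 1 gave -0.12 (adjusted p = 0.134) and WT replicate 2 -0.09 (0.189). Leaving out RORγtN275D replicate 1, 2 or 3 gave -0.15, -0.12 and -0.15 (adjusted p = 0.0771, 0.131 and 0.0703). Without WT replicate 3 it was -0.22 and remained called (adjusted p = 7.01e-06).

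*Sat1*, which encodes the spermidine/spermine acetyltransferase that marks polyamines for export or oxidation (chrX:155213126-155216449), had 4187, 4154 and 4066 normalized reads in WT. In RORγtN275D it had 3189, 3349 and 3282. All 3 RORγtN275D libraries were lower than all WT libraries, by 20.9% in the means (log2 fold change -0.34, SE 0.04, limma adjusted p = 1.76e-06). The enzymes that extend polyamines and the enzyme that acetylates them were therefore lower together.

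WT replicate 3 did not decide the called differences of *Odc1*, *Srm*, *Sms*, *Sat1* and *Nos2*. Without it, the log2 fold changes were 0.35 for *Odc1*, -0.45 for *Srm*, -0.29 for *Sms*, -0.35 for *Sat1* and 0.92 for *Nos2*, and all 5 remained called.

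Because the members moved in opposite directions, the make-up of their shared read pool differed. *Odc1* supplied 43.7% ± 0.342 of the reads on the 10 members in WT and 53.6% ± 0.381 in RORγtN275D. *Srm* supplied 11.8% ± 0.767 and 7.98% ± 0.275. The 10 members together held 52682 ± 1476 normalized reads in WT and 55534 ± 363 in RORγtN275D, whereas without *Odc1* they held 29642 ± 779 and 25787 ± 314. The summed level was higher in RORγtN275D with *Odc1* and lower without it.

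Ratios of members inside a library do not depend on how the libraries were scaled. With 3 libraries against 3, a two-sided exact permutation test cannot go below p = 0.1, so none of these ratios could pass 0.05, and 5 ratios were compared. The *Odc1* over *Oaz1* ratio was 2.97, 3.03 and 2.95 in WT and 3.86, 3.76 and 3.97 in RORγtN275D, 1.29-fold higher without overlap (exact p = 0.1). The *Srm* over *Odc1* ratio was 0.258, 0.261 and 0.289 in WT and 0.151, 0.154 and 0.142 in RORγtN275D, without overlap (fold 0.553, exact p = 0.1). Its log2 difference of -0.85 was the largest of the 5 in size. *Sms* over *Srm* was 0.721 ± 0.0616 in WT and 0.843 ± 0.0422 in RORγtN275D (exact p = 0.1), and *Sat1* over *Srm* was 0.668 ± 0.0378 and 0.739 ± 0.0366 (exact p = 0.1). *Azin1* over *Oaz1* overlapped, at 0.470 ± 0.0455 and 0.426 ± 0.0183 (log2 difference -0.14, exact p = 0.2; -0.07 without WT replicate 2).

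**Figure D2:**
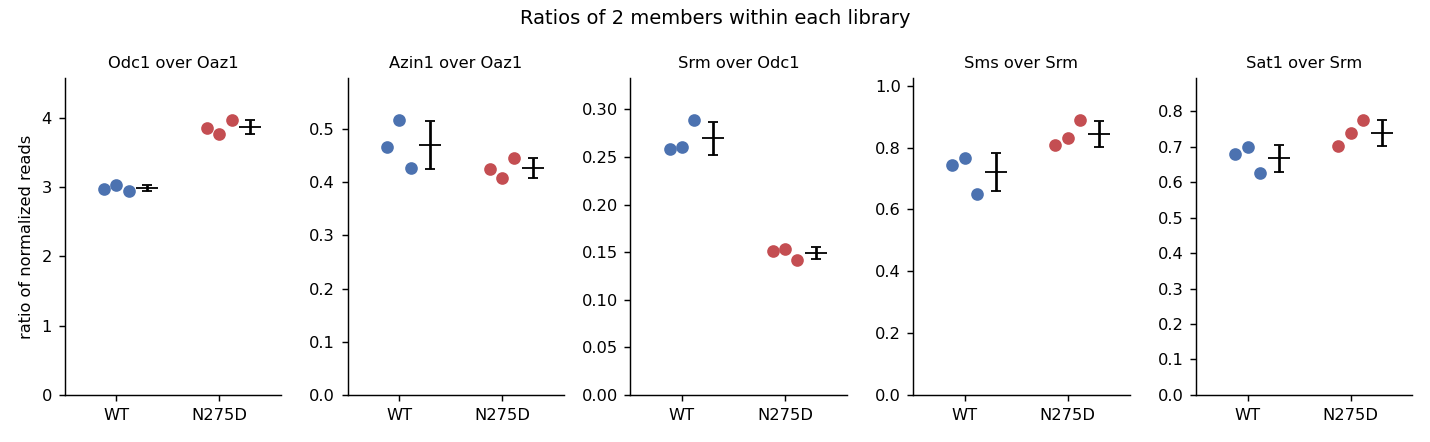
Ratios of normalized reads of 2 members within each library (y axes, each from 0) for 3 WT (blue) and 3 RORγtN275D (red) libraries, 1 point per library, with the mean and SD in black. *Srm* over *Odc1* lies between 0.258 and 0.289 in WT and between 0.142 and 0.154 in RORγtN275D, and *Azin1* over *Oaz1* overlaps.

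On a scale that allows genes to be compared, normalized reads per kilobase of exon, the order of the members was the same in both genotypes. The level of *Odc1* was 10435 ± 333 per kilobase in WT and 13473 ± 104 in RORγtN275D. *Oaz1* followed at 7189 and 7174, *Srm* at 4636 and 3312 and *Sat1* at 3496 and 2767. *Sms* stood at 1201 and 1004, *Amd1* at 1029 and 944, *Azin1* at 721 and 653 and *Nos2* at 44.9 and 78.0. No neighbours in this order overlapped within a genotype, although *Sms* (lowest WT library 1139) and *Amd1* (highest 1095) came close.

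**Figure D3:**
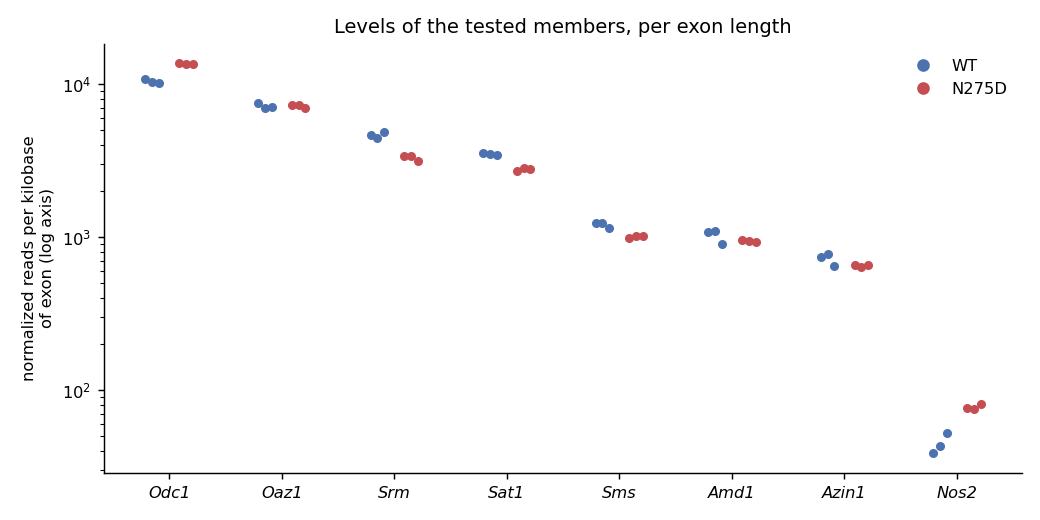
Normalized reads per kilobase of exon (y axis, log scale) of the 8 tested members in 3 WT (blue) and 3 RORγtN275D (red) libraries, 1 point per library. *Odc1* is the most abundant member in both genotypes and *Nos2* the least, at 44.9 and 78.0 on average.

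Of the 3 members whose products take arginine, *Nos2* was detected and higher in RORγtN275D, and *Arg1* and *Arg2* were near 0. *Nos2*, which encodes inducible nitric oxide synthase (chr11:78920787-78960226), had 167, 187 and 226 normalized reads in WT. In RORγtN275D it had 328, 325 and 352. Every RORγtN275D library was above every WT library, and the means of 193 ± 30.2 and 335 ± 14.4 stood in a ratio of 1.74 (log2 fold change 0.80, SE 0.10, 95% confidence interval 0.60 to 1.01, limma adjusted p = 4.77e-06). Its absolute log2 fold change was larger than that of 94.4% of all genes tested. Relative to its mean, *Nos2* had the widest spread between WT libraries of the 8 tested members, with WT replicate 3 the highest.

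*Arg1* (chr10:24915207-24927470), the cytosolic arginase, had 0, 1 and 0 reads in the WT libraries and 1, 1 and 1 in RORγtN275D. *Arg2* (chr12:79130788-79156301), the mitochondrial arginase, had 0 reads in every WT library and 2, 0 and 1 in RORγtN275D. Both genes stayed at or under 3 reads summed over each genotype, and a count of 0 itself allows up to 3 reads by counting error alone. No difference was detectable at this depth, and no fold or *Nos2* over *Arg2* ratio can be given.

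*Nos2* is a well known product of activated macrophages, so myeloid markers are given beside it. The 13 myeloid markers in the table summed to 133 to 165 normalized reads in WT and 164 to 198 in RORγtN275D, against 167 to 226 and 325 to 352 for *Nos2* alone. Of 5 tested, *Cd14* was higher (means of 11.3 and 22.9, limma adjusted p = 0.00673) and *Adgre1*, the macrophage marker F4/80, lower (22.6 and 6.64, adjusted p = 0.000512). The markers with the highest means were *Cd68* (50.6 in WT and 63.5 in RORγtN275D) and *Mrc1* (30.8 and 40.2), and neither was called. *S100a8* and *S100a9* had 3 reads or fewer in every library, and *Lyz2* averaged 4.66 and 7.97 normalized reads. Their part in the *Nos2* result was not tested.

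**Figure D4:**
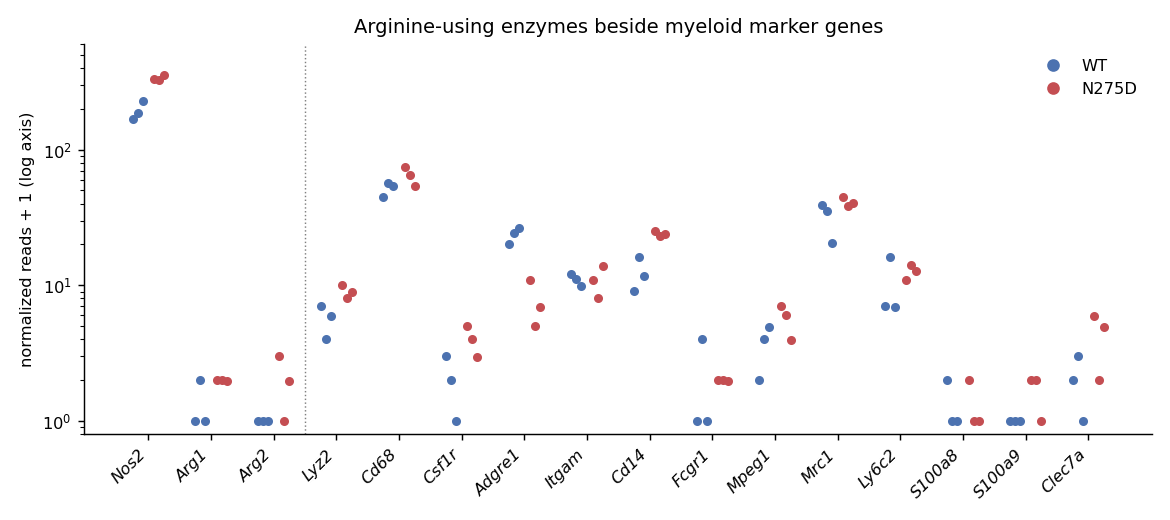
Normalized reads + 1 (y axis, log scale) of *Nos2*, *Arg1* and *Arg2* (left of the dotted line) and of 13 myeloid marker genes in 3 WT (blue) and 3 RORγtN275D (red) libraries, 1 point per library. *Nos2* lies above every marker in each library, and *Arg1* and *Arg2* lie at 0 to 2 reads.

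Around the members, 64 further genes of these pathways were in the table. Of the 51 tested, 19 were higher in RORγtN275D, 16 lower and 16 not called, a called share of 68.6% beside the 50.9% of all genes tested. Their median log2 fold change was 0.10, and 3 reached 2-fold (*Slc7a3*, *Pycr1* and *Nags*).

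Among other polyamine enzymes, all 5 tested were called, 3 higher and 2 lower. *Smox*, which encodes spermine oxidase, had 5870, 5960 and 6400 normalized reads in WT and 11178, 11420 and 11450 in RORγtN275D (log2 fold change 0.90, SE 0.04, limma adjusted p = 1.89e-11). This exceeded the absolute log2 fold change of every member, and 95.5% of all genes tested had a smaller one. The second antizyme gene *Oaz2* rose from 348 ± 12.4 to 461 ± 23.2 (0.40), whereas *Oaz1* was not called. *Azin2*, the second antizyme inhibitor, rose by a log2 fold change of 0.90 at a low level, 25.6 ± 5.63 to 48.2 ± 6.71. *Mtap*, which recycles the methylthioadenosine that both synthases release, was lower (-0.35), as was *Paox*, the oxidase of acetylated polyamines (-0.22). Thus an oxidase of spermine was higher while the acetylation route, *Sat1* and *Paox*, was lower.

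Of the 3 tested polyamine transport genes, *Atp13a3* was lower (log2 fold change -0.27, limma adjusted p = 9.15e-05), and *Atp13a2* and *Slc12a8* were not called. Of the 4 genes of the hypusine step, 3 were lower. *Eif5a*, the target of spermidine-dependent hypusination, went from 30126 ± 680 to 26670 ± 103 normalized reads (-0.18, adjusted p = 0.000209). The hypusine enzymes *Dhps* (-0.19) and *Dohh* (-0.18) were also lower, and both calls were lost without RORγtN275D replicate 3 (-0.14, adjusted p = 0.0709, and -0.14, 0.0508). *Eif5a2* was not called. In these 3 genes the sign was that of *Srm*, *Sms* and *Sat1*.

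Of 6 genes of S-adenosylmethionine supply and methionine salvage, 2 were higher, 2 lower and 2 not called. *Enoph1*, a salvage enzyme, was lower (log2 fold change -0.26), as was *Mat2a*, which makes S-adenosylmethionine (-0.17, not called under quantile normalization at -0.09, limma adjusted p = 0.0969). *Mat2b*, its regulatory subunit (0.14, adjusted p = 0.0284), and the salvage gene *Mri1* (0.13, adjusted p = 0.0479) were called higher close to the threshold. The *Mat2b* call was lost in 5 of 16 alternatives, among them without WT replicate 2 (0.14, adjusted p = 0.0525), RORγtN275D replicate 1 (0.12, 0.115) and replicate 3 (0.13, 0.0860). The *Mri1* call was lost in 9 of 16, including every library left out except WT replicate 3 (0.11 to 0.14).

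Arginine transport and sensing genes held the largest rise among the pathway genes tested. Of 10 tested, 5 were higher, 2 lower and 3 not called. *Slc7a3*, a cationic amino acid transporter, had 256, 273 and 250 normalized reads in WT and 686, 654 and 637 in RORγtN275D (log2 fold change 1.34, SE 0.06, limma adjusted p = 1.00e-10). The more abundant arginine transporter *Slc7a1* was slightly lower, 8109 ± 337 to 7477 ± 39.9 (-0.12, adjusted p = 0.0142), and lost its call without RORγtN275D replicate 2 (-0.11, 0.0592), under quantile normalization (-0.07, 0.106) and with eBayes without trend (0.0779). *Slc7a6*, a light chain of the exchanger that exports arginine, was lower (-0.20), and the shared heavy chain *Slc3a2* was higher, 5637 ± 192 to 7673 ± 344 (0.44). *Castor1*, the cytosolic arginine sensor of mTORC1, went from 186 ± 12.2 to 365 ± 13.7 (0.97), and its paralogue *Castor2* from 98.9 ± 8.99 to 193 ± 8.91 (0.96). *Slc38a9*, the lysosomal arginine sensor, was called higher (0.23, adjusted p = 0.0165), a call lost without WT replicate 3 (0.16, 0.0607), RORγtN275D replicate 1 (0.22, 0.0570) or replicate 3 (0.22, 0.0588) and under quantile normalization (0.17, 0.0687).

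Genes that rebuild arginine from citrulline were higher with *Nos2*, whose reaction yields citrulline. *Asl* rose from 702 ± 24.8 to 853 ± 8.04 normalized reads (log2 fold change 0.28, limma adjusted p = 0.000286). *Ass1* rose from 922 ± 30.5 to 1026 ± 39.7 (0.15, adjusted p = 0.0180), a call lost without WT replicate 2 (0.13, 0.0754) or RORγtN275D replicate 1 (0.12, 0.103). *Nags*, which makes the activator of the first urea cycle enzyme, rose by 1.12 at 19.0 ± 4.03 to 42.5 ± 8.68, and *Cps1*, that first enzyme, was under the mean of 10.

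Of 7 genes that link ornithine to proline and glutamate, 2 were higher, 3 lower and 2 not called. *Pycr1*, a mitochondrial enzyme of proline synthesis, had 103, 124 and 116 normalized reads in WT and 272, 296 and 277 in RORγtN275D (log2 fold change 1.30, SE 0.09, limma adjusted p = 1.17e-08). Its paralogue *Pycr3* was lower (-0.33). *Aldh4a1*, of proline breakdown, was lower by -0.60 and *Aldh18a1*, of proline synthesis, higher by 0.13, the latter not called without WT replicate 1 (0.11, adjusted p = 0.0528), without RORγtN275D replicate 2 (0.11, 0.0792) or with eBayes without trend (0.0585), and at 0.21 under quantile normalization. *Oat*, the ornithine aminotransferase that draws on the substrate of *Odc1*, was not called (2954 ± 75.1 and 2831 ± 62.2, log2 fold change -0.06, and 0.0086 under quantile normalization). All 3 tested creatine genes were higher: the transporter *Slc6a8* (0.64), the kinase *Ckb* (0.50) and *Gatm*, which takes arginine for creatine (0.46).

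Of 10 tested genes of nitric oxide synthases, tetrahydrobiopterin and nitric oxide response, 1 was higher, 3 lower and 6 not called. *Gch1*, the first enzyme of the nitric oxide synthase cofactor tetrahydrobiopterin, had 303, 336 and 357 normalized reads in WT and 497, 449 and 474 in RORγtN275D (log2 fold change 0.51, SE 0.07, limma adjusted p = 2.40e-05). It was higher without overlap, as *Nos2* was. The later cofactor enzymes *Spr* (-0.19) and *Qdpr* (-0.20) and the synthase-interacting protein gene *Nosip* (-0.22) were lower, and the *Spr* call was lost without WT replicate 3 (-0.11, adjusted p = 0.0670), RORγtN275D replicate 2 (-0.18, 0.0630) or replicate 3 (-0.17, 0.0693), and with eBayes without trend (0.0744). *Nos1* and *Nos3*, the other nitric oxide synthase genes, were under the mean of 10.

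**Figure D5:**
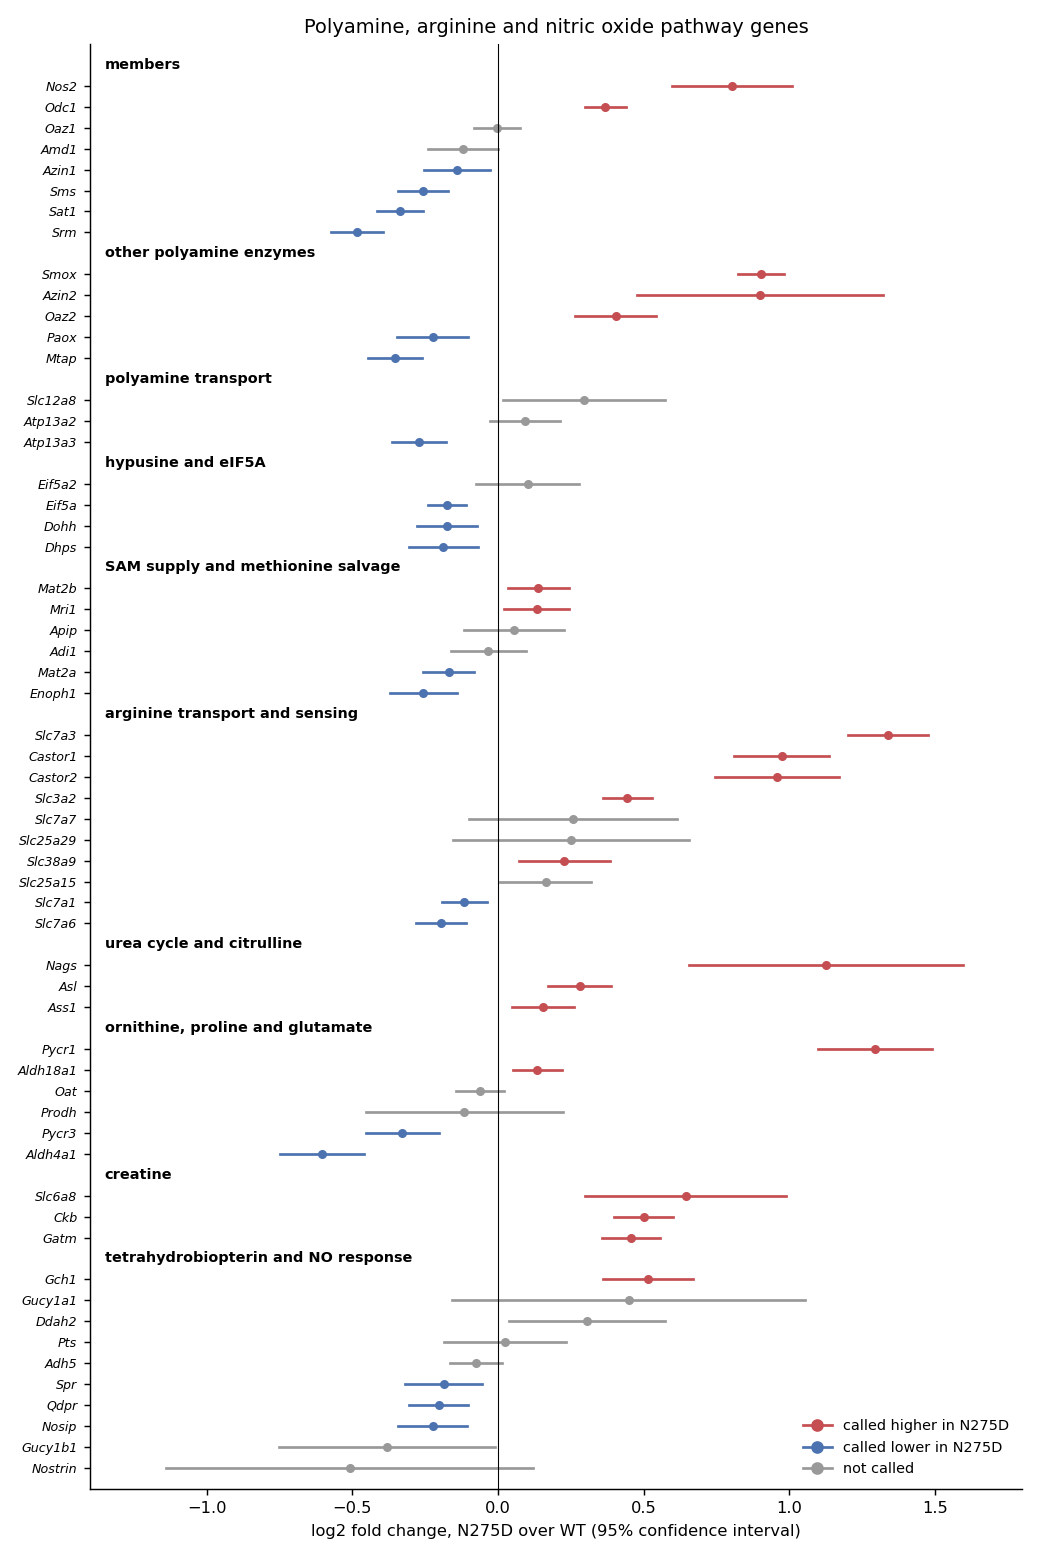
Log2 fold changes (x axis, RORγtN275D over WT) with 95% confidence intervals of the 8 tested members and of the tested pathway genes that are drawn here (all but 1), grouped by list and coloured by call (red higher, blue lower, grey not called at an adjusted p of 0.05). *Slc7a3*, *Pycr1* and *Nags* lie beyond 1, whereas the members run from -0.48 (*Srm*) to 0.80 (*Nos2*).

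Of 15 transcription factors known to act on members, 8 were higher, 2 lower and 5 not called, a called share of 66.7% beside the 50.9% of all genes tested. At least 2-fold was reached by 2 of them, both higher in RORγtN275D and at low levels. *Mycn* had means of 37.7 normalized reads in WT and 101 in RORγtN275D, and *Epas1* 20.4 and 57.1. *Myc*, which is known to act on *Odc1* and *Srm*, rose from 6169 ± 111 to 6952 ± 124 normalized reads (log2 fold change 0.17, limma adjusted p = 0.000585), with its partner *Max* lower (-0.16, not called under quantile normalization at -0.10, adjusted p = 0.0544). *Hif1a*, known to act on *Nos2*, rose from 5137 ± 317 to 8785 ± 55.9 (0.78, adjusted p = 4.00e-10). *Irf1*, *Nfkb1* and *Rela*, also known to act on *Nos2*, were not called. Of the members known to share *Myc*, *Odc1* was higher and *Srm* lower. The part of any of these factors in the members' differences was not tested.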

How the data were processed

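RNA-seq of 3 WT and 3 RORγtN275D Th17 libraries was grouped by the labels. Per the study's methods, the authors trimmed reads, used STAR for alignment to mm10 and featureCounts for counting, and ran DESeq2. The methods and the labels name different strand-specific library kits, and whether counting used strand is not given in the sources used here. The deposited signal values are reads multiplied by 1 factor per library, since 100% of values were whole multiples of it within 1e-06. The authors' group averages, log2 fold changes and q-values were not used.

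limma (version 3.58.1, R 4.3.3) was fitted on log2(normalized reads + 1) for 11908 genes, without a block, and was tested on simulated data. All members were named, and from each pathway list the called genes with the largest rises and falls, at most 3 each. *Slc3a2*, *Slc38a9* and *Oat*, outside this rule, were named after their values were seen. Members and lists were chosen with earlier results of these data known. Cell type markers and transcription factors are named where the text needs them. A few genes counted in the lists are not reported here by name. Alternatives were pseudocounts of 0.1 and 10, no filter, a minimum mean of 100, scaling by TMM, quantile normalization, an untrended eBayes prior, a replicate block, leaving out each library, and count models of the recovered reads in DESeq2 (version 1.42.0) and edgeR (version 4.0.16). Exon lengths came from a GENCODE annotation of GRCm38 (mm10), and gene coordinates and promoters from RefSeq GRCm38.p6. Depth was 17659035 to 18510878 reads per library.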

Additional observations from a re-analysis of the deposited data

How the results depend on the processing

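The number of members called was 6 and lay between 5 and 7 when each library was left out. Among pathway genes it was 35, between 29 and 34 with a library left out. A minimum of 2-fold left 0 members and 3 pathway genes. Same-numbered libraries of the genotypes did not deviate together (correlations of -0.05, 0.04 and -0.08), which does not settle whether they were handled as pairs. With the replicate block 6 members and 33 pathway genes were called. The *Oaz1* log2 fold change, -0.0027, changed sign with TMM scaling (0.0049), quantile normalization (0.0501), edgeR (0.0047), DESeq2 (0.0017), without WT replicate 1 (0.025) and without RORγtN275D replicate 3 (0.018), and lay between -0.022 and 0.025 over the libraries left out. *Oat* changed sign under quantile normalization (0.0086). Among the other members and genes named with a fold change, no direction changed. Calls were lost in 1 to 9 of 16 alternatives for *Azin1*, *Max* and 10 pathway genes, and *Amd1* was called only without WT replicate 3. The causes were not tested. No scaling moved the median of all genes by 0.1. With 3 libraries a genotype, exact tests of ratios cannot pass 0.05, and *Arg1* and *Arg2* lie at the counting floor.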
